A study of Drosophila melanogaster with 17 samples.

Results

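The genes described here encode the proteins of the small subunit of the cytosolic ribosome in Drosophila melanogaster. They are the genes whose name starts with RpS, together with stubarista (sta), without RpS5a, RpS5b, RpS19a, RpS19b, RpS28a and RpS28b. The rule uses names alone and no measured value, and it took 33 of the 16977 genes in the count tables. Of these 33, 31 reached a mean of at least 10 CPM, the count scaled to a common library size, in at least 1 group, while RpS10a and RpS28-like stayed under 10 CPM in every group. All 33 had at least 1 count in every tissue and were tested in each.

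The small subunit binds the mRNA, scans it for the start codon and holds the decoding centre in which codon and anticodon pair, while the large subunit joins the amino acids. Flies that lose a copy of many of these genes show the Minute phenotype, with slow development and short, thin bristles.

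The study used translating ribosome affinity purification (TRAP), in which ribosomes carrying a tagged protein are pulled down from a chosen cell type together with the mRNAs on them. The tag was Flag-GFP on RpL10, a protein of the large subunit, and the polyA RNA was amplified as cDNA and sequenced. The aim was to list mRNAs on ribosomes in DIP-gamma neurons of adult heads and in motor neuron axons of larval axonal sections and of adult legs. Within each tissue a TRAP genotype was compared with a control genotype.

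In heads, 3 samples of DIP-gamma-GAL4/UAS-Flag-GFP-RpL10 flies were set against 3 of UAS-Flag-GFP-RpL10/+ flies, all aged 2 days. In legs, 3 samples of the same TRAP genotype were set against 2 controls, also at 2 days, since the authors left out a further control for DNA contamination. In larvae at stage L3, 3 samples of OK371-GAL4/UAS-Flag-GFP-RpL10 were set against 3 of UAS-Flag-GFP-RpL10/+. Every group, controls included, carried the UAS-Flag-GFP-RpL10 transgene, which the study describes as leaky without a driver, so a control is the RNA pulled down from the same tissue with no GAL4. DIP-gamma-GAL4 is active in a restricted subset of motor neurons, and OK371-GAL4 is an enhancer trap in VGlut that marks glutamatergic neurons. Each sample was a pool of animals, with males alone for heads and both sexes for legs. Each tissue had its own batch label, shared by its TRAP and control samples. In comparisons between tissues the tissue, the batch, the stage and, for larvae, the driver therefore cannot be told apart. For legs against heads the same holds for the sexes pooled. The labels call the samples replicates of a group without naming separate crosses, so p-values measure the spread between these samples.

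Depth ran from 29512310 to 88324615 counts per sample, and a count of 3, taken as the floor of detection for counting error only, was worth at most 0.105 CPM. The 10 neuronal markers summed to 1206 to 3472 CPM in head TRAP samples against 703 to 841 in their controls, but overlapped between the groups in larvae and legs. The 14 muscle markers were lower in TRAP in heads (10565 to 18882 against 25379.6 to 39040.4 CPM) and legs (16801 to 20682 against 25933 to 26042 CPM), and overlapped in larvae. The 8 salivary gland markers summed to 3307, 36244 and 5304 CPM in larval TRAP replicates 1, 2 and 3 against 70.7 to 178 CPM in the controls, and 7 of the 8 passed the test upwards, against 0.234% of all genes. Larval TRAP replicate 2 stood apart, with 54.5% of its counts in its 10 most abundant genes and a trimmed mean of M-values (TMM) scaling factor of 0.515, against factors of 0.824 to 1.35 elsewhere. In bulk samples such as these, fewer cells of a type and less RNA per cell cannot be told apart.

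Summed over the 33 genes, the small-subunit mRNAs took a larger share of all counts in every TRAP sample than in every control of the same tissue. In heads the share was 0.897%, 0.781% and 0.767% in the controls and 1.04%, 1.09% and 1.11% in TRAP. In larvae it was 1.01%, 0.519% and 0.806% in the controls and 2.06%, 1.60% and 1.72% in TRAP. In legs it was 0.514% and 0.414% in the controls and 0.874%, 0.792% and 0.709% in TRAP. The ratio of the TRAP mean to the control mean was therefore greatest in larvae, at 2.30, with 1.71 in legs and 1.32 in heads. After TMM scaling, which corrects for the makeup of each library, larvae and legs still separated, while heads overlapped, with 8826 to 10593 CPM in controls and 8253 to 9814 CPM in TRAP.

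**Figure D1:**
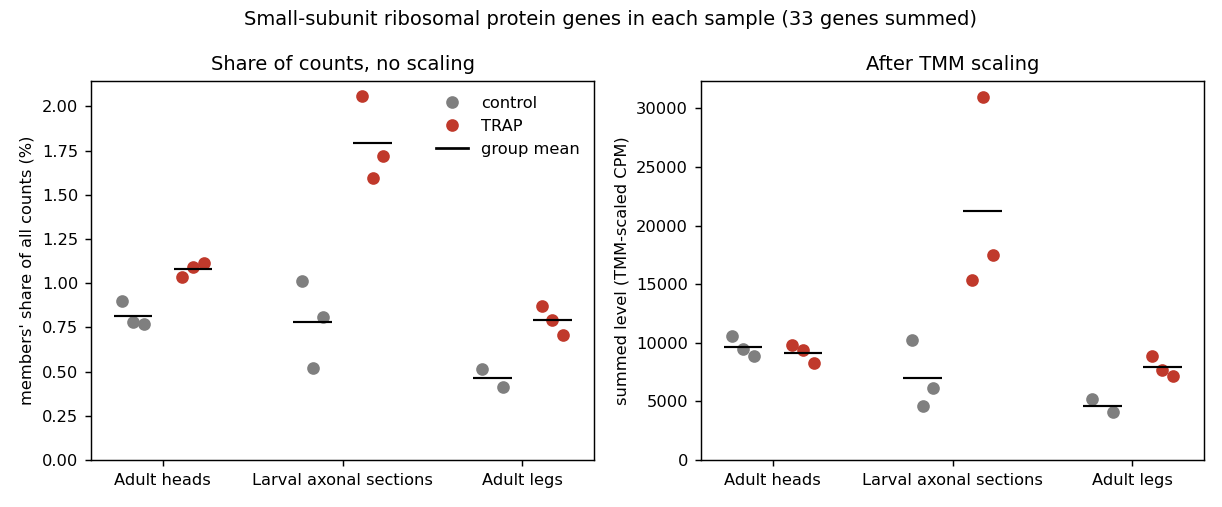
Share of all counts taken by the 33 small-subunit genes, in percent (left), and their summed level in TMM-scaled CPM (right), for each sample (grey, control; red, TRAP; line, group mean). Every TRAP sample lies above every control of its tissue in the left panel, whereas the head groups overlap in the right panel.

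The balance between both subunits was nearly even across samples. The counts of the 33 small-subunit genes divided by those of 44 large-subunit genes (RpL genes without RpL10, which the transgene carries, and without lesser copies) lay between 0.621 and 0.701 in all 17 samples. The highest and the lowest value both belonged to larvae, with 0.701 in TRAP replicate 1 and 0.621 in control replicate 2. Within each tissue the TRAP and control ratios overlapped.

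Levels per kilobase of exon were compared between genes, since a longer mRNA gives more fragments. RpS25, a protein of the subunit's head that contacts several viral internal ribosome entry sites, was the most abundant in 5 of the 6 groups, with 1119 ± 102 CPM per kilobase in head controls and 1115 ± 84.6 in head TRAP (SD, n = 3). In larval TRAP it was at 1573 ± 593 CPM per kilobase (SD, n = 3). In leg controls RpS25 and RpS3A stood level, at 424 ± 73.8 and 423 ± 35 CPM per kilobase (SD, n = 2). The lowest places among the 31 were held by RpS21 in head controls and in both leg groups and by RpS15Ab in head TRAP and in both larval groups. The highest and lowest of the 31 differed by 10.7 to 19.6 times within a group. Ranked per kilobase, the order of the 31 was alike in TRAP and control, with a Spearman rho of 0.99 in heads, 0.97 in legs and 0.85 in larvae (n = 31 genes from the same libraries, a description with no test).

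**Figure D2:**
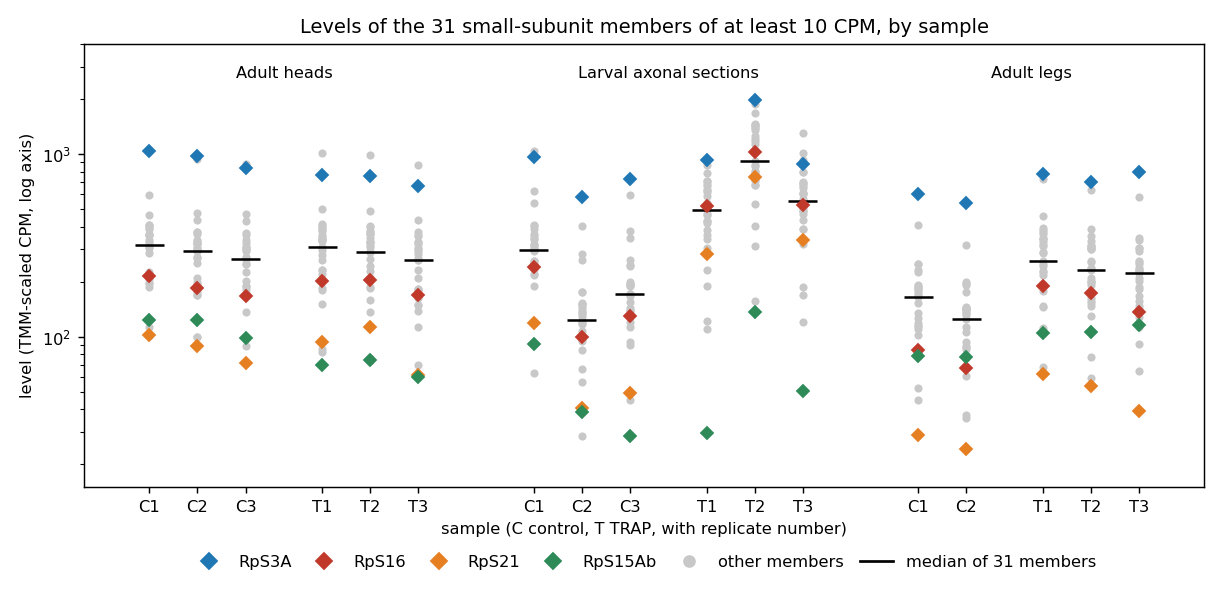
Level of each of the 31 members of at least 10 CPM in every sample (TMM-scaled CPM on a log axis; grey points, members; diamonds, 4 named members; black bar, median of the 31). On this scale larval TRAP replicate 2 is the highest of its group for all 31 members, although its unscaled share of counts is the lowest. RpS15Ab is the lowest of the 31 in each larval TRAP sample.

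In legs, which hold motor axons without their cell bodies, nearly the whole set was higher in TRAP. For 31 of 33 members every TRAP sample lay above both controls, a pattern found in 11.8% of the 14200 genes tested. The median log2 fold change of the 33 was 0.80, against -0.01 over all genes and 0.79 over the 44 large-subunit genes. No member passed the adjusted threshold of edgeR's quasi-likelihood test, which 0.113% of all genes passed upwards, and the smallest adjusted p was 0.0642. At an unadjusted p under 0.05, 31 members were higher, against 4.68% of all genes, and DESeq2 called the same number higher at its adjusted threshold, against 2.85% of the genes to which it gave an adjusted p. The unadjusted count was 20 without control replicate 2 and 12 in a fit of all 3 tissues. The 2 exceptions were the scarce RpS10a and RpS28-like.

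Members with large leg values belonged to different places in the particle. RpS16, whose tail reaches the peptidyl site from the head, was at 84.4 and 67.1 CPM in the controls and 188, 173 and 137 in TRAP, a log2 fold change of 1.14 (SE 0.20). RpS9, which binds early to the ribosomal RNA of the body, was at 114 and 79.3 CPM in the controls and 249, 203 and 188 in TRAP, a log2 fold change of 1.14 (SE 0.21). In both genes the groups were apart, with the lowest TRAP sample above the higher control, and their adjusted p values in edgeR, 0.0751 and 0.0904 respectively, did not pass the threshold. RpS20, another protein of the head, was less even, at 52.7 and 36.1 CPM in the controls and 112, 77.8 and 91.7 in TRAP, with a log2 fold change of 1.08 (SE 0.23).

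The smallest leg values among the 31 came from RpS3A, RpS15Ab and RpS13. RpS3A, a protein of the platform on the mRNA exit side, was at 604 and 537 CPM in the controls and 781, 699 and 792 in TRAP, with a log2 fold change of 0.41 (SE 0.16). RpS13, a body protein that touches the large subunit, was at 166 and 144 CPM in the controls and 245, 210.1 and 210.2 in TRAP, with a log2 fold change of 0.52 (SE 0.17). Even for these genes no leg TRAP sample fell among the controls. RpS6, the target of S6 kinase, was at 193 and 143 CPM in the controls and 314, 258 and 238 in TRAP. RpS3, which lines the mRNA entry channel, was at 119 and 93.9 CPM in the controls and 189.9, 157 and 156 in TRAP. Both were apart between the groups. The log2 fold changes of RpS2 and RpS3, both at the mRNA entry, were 0.64 and 0.66, that of RpS6 was 0.69, and that of sta, the platform protein known in mammals as the laminin receptor homolog, was 0.67, all below the median of the set. RpS27A, which is made as a fusion with ubiquitin, was above it at 0.92. The muscle markers lay the other way, since 11 of the 14 lay below both controls in every TRAP sample (12.8% of all genes) and none of the 14 was at 0, and their part in the result was not tested. Without TRAP replicate 3, whose 9 fat body and yolk markers summed to 172 CPM against 2195 to 4489 in the other leg samples, 10 members passed the adjusted threshold, and without any other leg sample none did. Over all genes 95 were then called higher and 54 lower, against 16 and 17 with every sample.

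In larval sections the values were larger and more scattered. For 27 of 33 members every TRAP sample lay above every control, against 4.53% of the 16702 genes tested. The median log2 fold change was 1.64 over the 33, 0.25 over all genes and 1.62 over the large-subunit genes. No member passed the adjusted threshold in edgeR, which 0.234% of all genes passed upwards, and the smallest adjusted p was 0.0709. At an unadjusted p under 0.05, 27 were higher (4.13% of all genes), and DESeq2 called 24 higher (2.03% of the genes to which it gave an adjusted p). The unadjusted count was 13 without control replicate 2, 13 without control replicate 3 and 14 without TRAP replicate 2. The 6 genes with overlapping groups were RpS2, RpS3A, RpS15Ab, RpS25, RpS10a and RpS28-like.

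RpS21, a protein of the body that in the fly has been tied to growth of the blood-forming tissue, had the largest larval value. It was at 119, 40.9 and 49.4 CPM in the controls and 284, 753 and 337 in TRAP, a log2 fold change of 2.71 (SE 0.59). RpS23, which forms part of the decoding centre, was at 259, 108 and 139 CPM in the controls and 710.5, 1396 and 697 in TRAP, a log2 fold change of 2.47 (SE 0.60). RpS30, which lies at the mRNA entry channel and is made as a fusion with a ubiquitin-like protein, was at 221, 94.9 and 119.6 CPM in the controls and 537, 1246 and 467 in TRAP, with a log2 fold change of 2.37 (SE 0.60). In each of these 3 the highest control was replicate 1, and it still lay below the lowest TRAP sample. Their adjusted p values in edgeR were 0.0709, 0.173 and 0.204.

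At the other end, RpS15Ab was at 91.2, 38.7 and 28.4 CPM in the controls and 29.8, 137 and 50.5 in TRAP, and RpS3A was at 964, 580.0 and 734 CPM in the controls and 932, 1985 and 880.4 in TRAP. RpS2 was at 406, 176 and 247 CPM in the controls and 386, 714 and 486 in TRAP. For these 3 genes control replicate 1 was as high as at least 1 TRAP sample, and the log2 fold changes were 0.45 (SE 0.54), 0.74 (SE 0.63) and 0.93 (SE 0.54). That of RpS15Ab turned to -0.52 without TRAP replicate 2 and to -0.10 with library size alone. RpS3, RpS6, RpS27A and sta lay between, at 1.53, 1.79, 1.88 and 1.48.

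The larval spread ran through the whole set. Control replicate 1 was the highest control for all 31 members, with a median of 299.9 CPM against 123 and 172, and TRAP replicate 2 the highest TRAP sample for all 31, with a median of 910.3 CPM against 495 and 550.0. TRAP replicate 2 was also the sample with the highest salivary gland markers, and in the controls these were at 70.7, 178 and 86.2 CPM, lowest in replicate 1. All 8 salivary gland markers lay above every control in every TRAP sample, none of them was at 0 in larvae, and their part in the result was not tested. Without TRAP replicate 2 the median of the members was 1.18, and 22 members still had every TRAP sample above every control. With library size alone the median of all genes moved from 0.25 to 0.015 and that of the members from 1.64 to 1.25. Without TRAP replicate 1, 10 members passed the adjusted threshold, and without TRAP replicate 3 RpS21 alone did. Over all genes 148 and 68 were then called higher, against 39 with every sample. The 9 fat body and haemolymph markers summed to 752 to 861 CPM in larval TRAP against 1674 to 2001 in the controls. They did not all move alike, since 3 of the 9 had a log2 fold change above 0. In every TRAP sample 5 lay below every control and 1 above, against 962 and 757 of the 16702 genes tested. Yp1 and Yp2 were at 0 in at least 1 sample and the other 7 above 0 in every sample. The part of these markers was not tested either.

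In heads the set did not separate. No member had every TRAP sample above every control, a pattern seen in 16.3% of the 16638 genes tested. The opposite pattern, every TRAP sample below every control, was found for 4 members, against 18.2% of all genes, and these were RpS3A, RpS14b, RpS15Ab and RpS24. The median log2 fold change was -0.06, against 0.32 over all genes and -0.08 over the large-subunit genes, and 26 of the 31 lay within 0.2 of 0. In edgeR, 1 member passed downwards (9.41% of all genes) and none upwards (7.23% of all genes). No member was higher at an unadjusted p under 0.05 (14.6% of all genes), or at DESeq2's adjusted threshold (14.1% of the genes to which it gave an adjusted p). With library size alone, however, 4 members were higher at edgeR's adjusted threshold (17.5% of all genes). Without control replicate 1, RpS29 alone lay above every remaining control, and the median was 0.019. In the same samples 9 of the 10 neuronal markers were above every control and 8 of the 14 muscle markers below every control in each TRAP sample, and the part of either in these values was not tested.

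The member that fell was RpS15Ab, a further copy of the gene for a body protein. It was at 123, 123 and 98.6 CPM in the controls and 70.3, 74.5 and 59.9 in TRAP, with no overlap, a log2 fold change of -0.75 (SE 0.18) and an adjusted p of 0.0168 in edgeR. The adjusted p was 0.0811 without control replicate 1, 0.0853 without control replicate 2 and 0.0566 without TRAP replicate 2, and stayed under the threshold without each of the other 3 samples. With library size alone the log2 fold change was -0.27 with an adjusted p of 0.235 in edgeR, and in a fit of all 3 tissues it was -0.87 with an adjusted p of 0.379. RpS14b was at 112, 99.0 and 89.1 CPM in the controls and 82.6, 76.6 and 70.2 in TRAP, with a log2 fold change of -0.39 (SE 0.17). RpS3A was at 1038, 969.8 and 836 CPM in the controls and 772, 754 and 667 in TRAP, with a log2 fold change of -0.38 (SE 0.18). Both sets of values are apart, but neither gene passed the adjusted threshold.

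The largest head values were small. RpS9 gave 0.15 (SE 0.18), RpS14a gave 0.10 (SE 0.18) and RpS29, a zinc-binding protein of the head of the subunit, gave 0.10 (SE 0.19). RpS29 was at 387, 320.1 and 249 CPM in the controls and 343, 328 and 355 in TRAP, with the groups intermixed. RpS2, RpS3, RpS6, RpS27A and sta gave -0.10, -0.18, -0.08, -0.04 and 0.09. The head values hang on the scaling. With library size alone the median of all genes moved from 0.32 to 0.81 and that of the members from -0.06 to 0.41, 24 members had every TRAP sample above every control (33.3% of all genes), and 4 members, RpS9, RpS12 and RpS14a among them, passed upwards (17.5%) and none downwards. Relative to the median of all genes the members were at -0.39 with TMM and at -0.40 with library size.

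**Figure D3:**
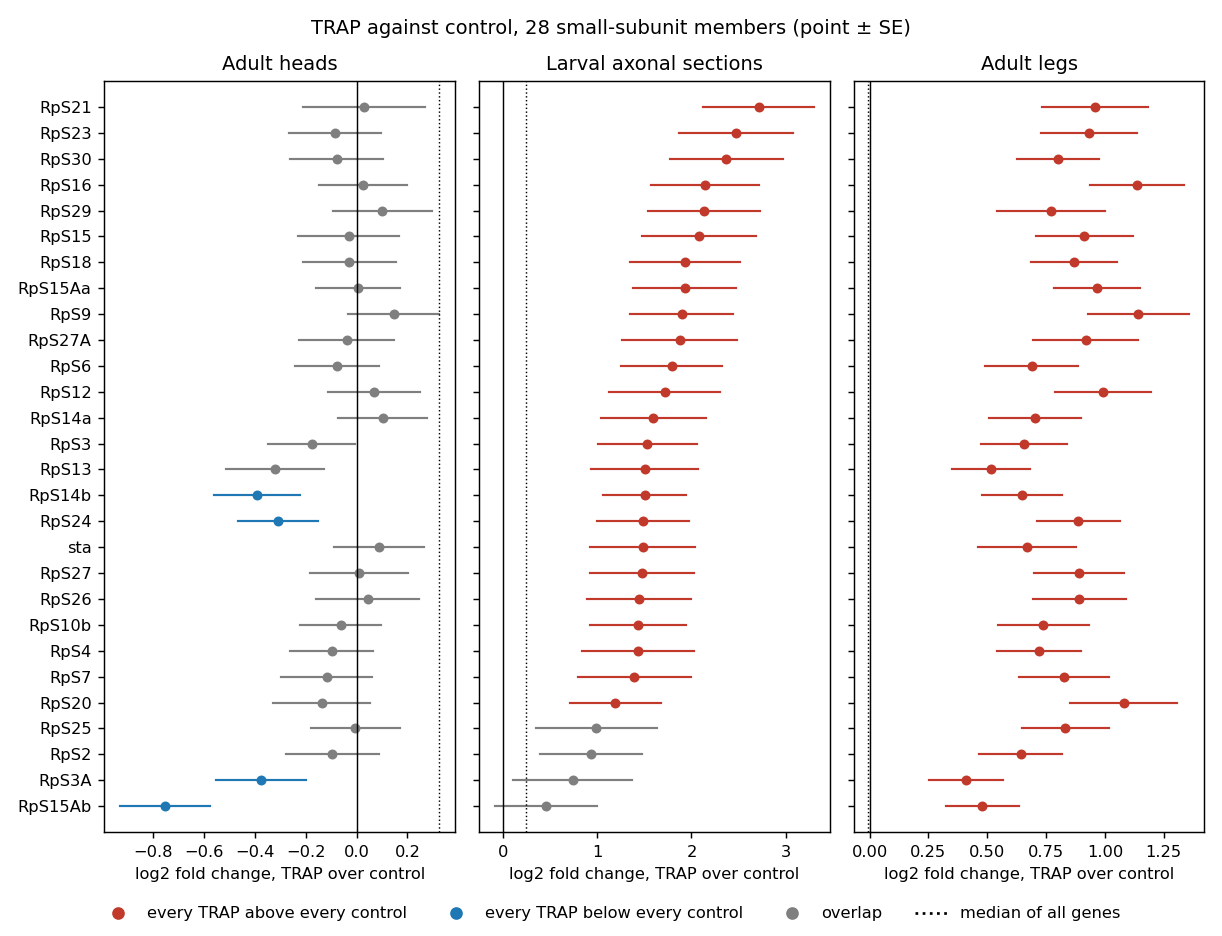
Log2 fold change of TRAP over control for 28 members of at least 10 CPM, ordered by the larval value (point, edgeR estimate; bar, SE; red, every TRAP sample above every control; blue, every TRAP sample below every control; grey, overlap; dotted line, median of all genes). The 3 panels have different horizontal scales, since these members span -0.75 to 0.15 in heads, 0.45 to 2.71 in larvae and 0.41 to 1.14 in legs.

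Of the members of at least 10 CPM outside the naming rule for single tissues, 9 (RpS4, RpS7, RpS12, RpS15, RpS18, RpS24, RpS25, RpS26 and RpS27) lay in the same ranges. Their log2 fold changes ran from 0.72 for RpS4 to 0.99 for RpS12 in legs, where all 9 were above both controls in every TRAP sample. In larvae they ran from 0.99 for RpS25 to 2.08 for RpS15, and 8 of the 9 were apart. In heads they ran from -0.31 for RpS24 to 0.07 for RpS12, and of the 9 only RpS24 was apart, in the downward direction.

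The members were also grouped by where in the particle the protein sits, known from structures of yeast and animal subunits. The 11 measured proteins of the head of the subunit had a median log2 fold change of 0.91 in legs, 1.88 in larvae and -0.03 in fly heads. The 20 proteins of the body and platform had 0.75, 1.5 and -0.08 in the same order. In larvae 10 of the 11 and 17 of the 20 had every TRAP sample above every control. Of the 4 members below every control in fly heads, all belonged to the body and platform. The ranges of both groups overlapped in each tissue, and the difference between them was not tested.

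The makeup of the set was compared as the share of each gene among the counts of the 33, a measure that no scaling factor enters. RpS3A held a lower share in every TRAP sample than in every control in all 3 tissues, and was the only member of which this was true. Its share was 9.80%, 10.2% and 9.47% in head controls and 7.87%, 8.01% and 8.08% in head TRAP. In larvae it was 9.41%, 12.7% and 11.9% in controls and 6.06%, 6.41% and 5.04% in TRAP, and in legs it was 11.7% and 13.1% in controls and 8.81%, 9.07% and 11.0% in TRAP. RpS3A is the only member on chromosome 4, a small chromosome rich in heterochromatin, and a link between this place and its share was not tested.

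RpS15Aa and RpS16 held a higher share in TRAP without overlap in all 3 tissues. RpS16 held 2.02%, 1.94% and 1.90% in head controls and 2.05%, 2.18% and 2.04% in head TRAP. In larvae it held 2.36%, 2.19% and 2.11% in controls and 3.39%, 3.33% and 3.01% in TRAP, and in legs 1.63% and 1.63% in controls and 2.12%, 2.25% and 1.91% in TRAP. The TRAP share of RpS23 was the higher without overlap in larvae and legs, that of RpS2 the lower, and both overlapped in heads. RpS25 split the axonal tissues, with a share below every control in larval TRAP and above both controls in leg TRAP. In larvae it held 10.1%, 8.83% and 9.71% in controls and 5.63%, 6.06% and 7.43% in TRAP, and in legs 7.88% and 7.78% in controls and 8.19%, 8.28% and 8.04% in TRAP. RpS25 and RpS24 were singled out after their values were seen. The shares of 1 sample sum to 100%, so that a higher share of 1 gene goes with lower shares of others.

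**Figure D4:**
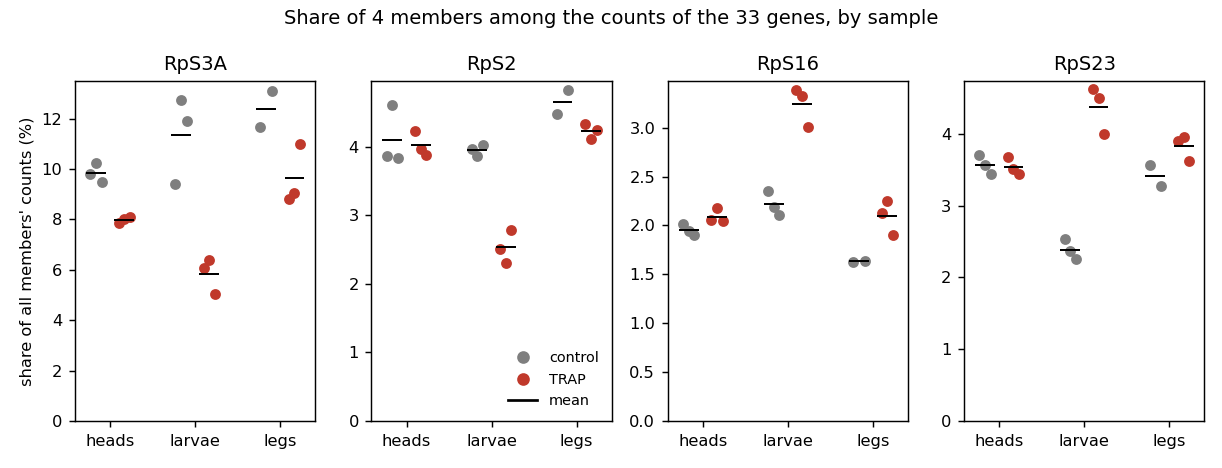
Share of RpS3A, RpS2, RpS16 and RpS23 in the counts of the 33 genes, in percent, for each sample (grey, control; red, TRAP; line, group mean). RpS3A lies lower and RpS16 higher in every TRAP sample of each tissue, while RpS2 and RpS23 separate only in larvae and legs.

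Across the 31 members the log2 fold changes of the tissues went together in part, although the tissues share no samples. Pearson's r was 0.59 for larvae and legs, 0.63 for legs and heads and 0.59 for larvae and heads, with Spearman's rho of 0.54, 0.54 and 0.49 (n = 31 genes, which share libraries and are not replicates). RpS15Ab and RpS3A were among the 3 lowest members in every tissue. The share of the gene's span that is intron went with the leg value at r = 0.54 and rho = 0.55. With the larval value r was 0.30 and rho 0.27, and with the head value r was 0.27 but rho only 0.096. Exon length gave r of -0.35 in legs, -0.30 in larvae and 0.11 in heads, with rho of -0.43, -0.35 and 0.0077.

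Some near-identical copies were counted apart, and how the reads they share were divided is not given in the sources used here, so their separate values are uncertain. RpS14a and RpS14b encode the same platform protein and are neighbours on the X chromosome, at 7933742 to 7934677 and 7934898 to 7935792 on the plus strand (BDGP6). RpS14a was at 174 and 131 CPM in leg controls and 291, 233 and 224 in leg TRAP, and RpS14b at 45.1 and 37.1 CPM in leg controls and 68.5, 59.6 and 65.2 in leg TRAP. The ratio of RpS14a to RpS14b counts was 3.21 to 3.38 in head controls and 4.37 to 4.76 in head TRAP, without overlap, but overlapped between the groups in larvae and legs.

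RpS15Aa and RpS15Ab parted more widely. RpS15Aa lies on X and has introns, whereas RpS15Ab (FBgn0033555) lies on 2R at 10821676 to 10822399 on the plus strand and is annotated as a single exon with no intron. RpS15Aa was at 218, 98.8 and 113 CPM in larval controls and 419.6, 781 and 435 in larval TRAP, a log2 fold change of 1.93 (SE 0.54). The ratio of RpS15Aa to RpS15Ab counts was 2.39 to 3.98 in larval controls and 5.72 to 14.1 in larval TRAP. It was 1.62 to 1.91 in head controls and 2.80 to 3.14 in head TRAP, and 0.990 to 1.29 in leg controls and 1.54 to 1.68 in leg TRAP, so that in every tissue the TRAP samples lay above the controls.

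The pair RpS10b and RpS10a was unequal throughout. RpS10b, a protein of the head of the subunit, was at 189, 101 and 138 CPM in larval controls and 231, 533 and 391 in larval TRAP, at 110.1 and 87.5 in leg controls and 194, 153 and 147 in leg TRAP. Its copy RpS10a overlaps tau on the opposite strand and has a single exon. RpS10a had 14, 12 and 12 counts in head controls, 4, 14 and 31 in head TRAP, 0, 4 and 11 in larval controls, 55, 0 and 0 in larval TRAP, 0 and 37 in leg controls and 1, 0 and 21 in leg TRAP. RpS28-like, which overlaps CG3769 on the same strand, had 6 to 30 counts per head sample, 0 to 14 per larval sample and 2 to 52 per leg sample. Both scarce genes are thus near the floor, each larval total rests mainly on TRAP replicate 1, and their fitted fold changes, which rest on these few counts, are given only under the alternative settings.

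The TRAP effect was then compared between tissues in 1 model with a genotype by tissue term. The leg effect exceeded the head effect for 11 of 33 members at the adjusted threshold, against 4.29% of the 16706 genes tested, and for 29 at an unadjusted p under 0.05, against 12.2%. The median difference over the members was 0.91 on the log2 scale, against -0.14 over all genes and 0.94 over the large-subunit genes. The largest differences were those of RpS15Ab, at 1.27 (SE 0.23), RpS20, at 1.24 (SE 0.33), and RpS24, a body protein, at 1.23 (SE 0.24). Their adjusted p values in edgeR were 0.0131, 0.0396 and 0.0153. In legs RpS15Ab was at 78.7 and 77.3 CPM in the controls and 105, 105 and 116 in TRAP, apart in the opposite direction to heads. RpS24 was at 188, 169 and 169 CPM in head controls, 150.2, 136 and 138 in head TRAP, 84.7 and 67.1 in leg controls and 145, 148 and 128 in leg TRAP, so that its groups were apart in opposite directions.

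The number past the threshold was not steady. It was 1 (RpS15Ab) with library size alone, 0 in a fit of all 3 tissues and 26 with DESeq2, which called 7.32% of the genes to which it gave an adjusted p. The count at an unadjusted p under 0.05 was 6 with library size alone and 9 in a fit of all 3 tissues. On leaving out 1 sample at a time this unadjusted count ran from 23 to 31. The count past the adjusted threshold was 2, 3 and 4 without head control replicates 1, 2 and 3, 2 without head TRAP replicate 2. That adjusted count was 1 and 0 without leg control replicates 1 and 2, and 3 and 5 without leg TRAP replicates 1 and 2. The difference itself was positive for all members but RpS10a and RpS28-like, and its median was 0.91 with TMM and 0.40 with library size, which is 1.06 above the median of all genes in both.

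**Figure D5:**
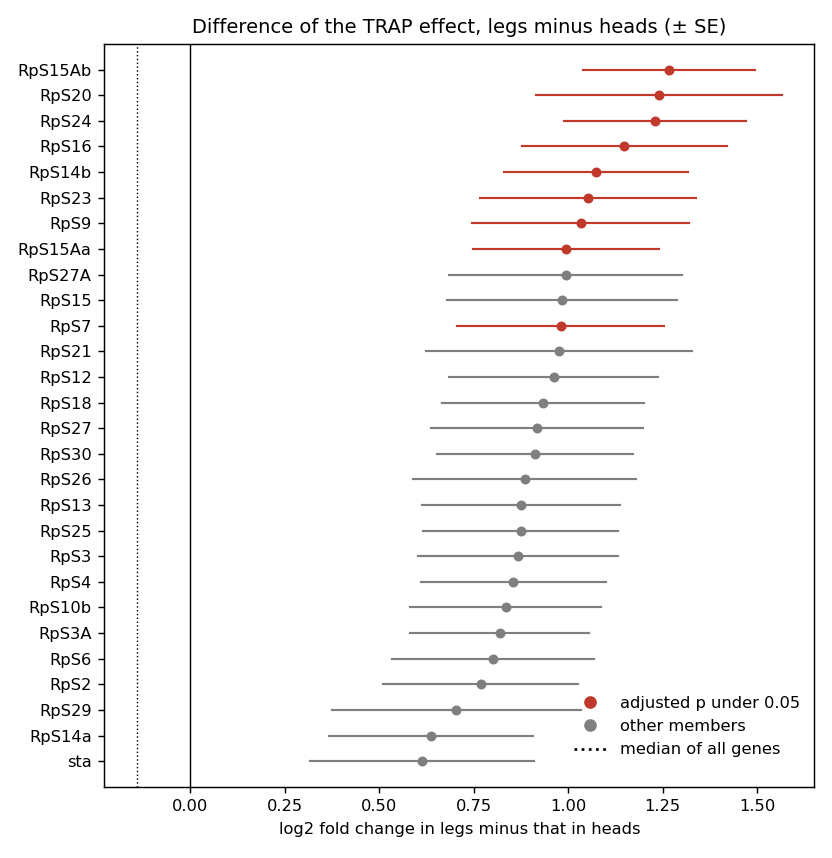
Log2 fold change in legs minus that in heads for 28 members of at least 10 CPM (point, edgeR estimate; bar, SE; red, adjusted p under 0.05; dotted line, median of all genes, -0.14). All 28 differences lie above 0, and 9 of them passed the threshold.

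For larvae against heads the median difference was 1.70, against -0.24 over all genes, and was positive for all 33 members, and with library size alone it was 0.89 against -0.76. None passed the adjusted threshold in edgeR (0.0178% of 16830 genes), 26 had an unadjusted p under 0.05 (3.86%), and DESeq2 called 19 (2.55% of the genes to which it gave an adjusted p). The unadjusted count was 14 with library size alone and 16 without larval control replicate 2. For larvae against legs the median difference was 0.90, against 0.13 over all genes, and it was 0.52 against -0.08 with library size alone and 0.58 against 0.13 without larval TRAP replicate 2. None passed in edgeR (0.0119% of 16745 genes), 3 had an unadjusted p under 0.05 (3.7%), a count that ran from 0 to 9 on leaving out 1 sample at a time, and DESeq2 called none (0.673% of the genes to which it gave an adjusted p).

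Of 17 assembly factors of the small subunit listed, 15 were found, among them the box C/D protein fibrillarin (Fib), the H/ACA protein NHP2 and the kinases RIOK1 and RIOK2. In legs their median log2 fold change was 0.11, and none passed the adjusted threshold in edgeR in either direction (0.232% of all genes), with 2 higher at an unadjusted p under 0.05 and Fib alone called higher by DESeq2. Fib was at 3.74 CPM in leg controls and 8.78 in leg TRAP as group means. In larvae the median was 0.28 with TMM and -0.0060 with library size alone, and none passed in edgeR (0.245% of all genes) or DESeq2, with 1 higher at an unadjusted p under 0.05. In heads the median was -0.52 with TMM and -0.047 with library size alone. With TMM 3 of the 15 fell in heads, against 9.41% of all genes, namely NHP2 (-0.69), CG2972 (-0.88) and l(1)G0004 (-0.85), whereas with library size alone they were at -0.22, -0.40 and -0.38 and none passed. DESeq2 called these 3 and Nop60B lower, among 1811 genes in all. The library-size values of these genes were added after seeing the data.

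A list of 10 genes that control ribosomal protein synthesis gave medians of -0.03 in legs, -0.15 in larvae and 0.01 in heads, the last of which was 0.49 with library size alone. Of these, 2 passed the adjusted threshold in edgeR and in DESeq2, both downwards in heads (9.41% of all genes in edgeR), and none passed in larvae or legs in either tool, nor had an unadjusted p under 0.05 there. They were Thor, the 4E-BP that restrains cap-dependent translation, from a mean of 196 to 99.4 CPM (log2 fold change -0.98), and Rheb, the GTPase that activates Tor, from 159.8 to 89.0 CPM (-0.84). With library size alone they were at -0.49 and -0.36 and did not pass, while larp, raptor and Trf2 passed upwards (17.5% of all genes). S6k, the kinase of RpS6, did not pass in any tissue, with log2 fold changes of -0.20 in heads, 0.06 in larval sections and -0.15 in legs.

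The 33 genes lie on all major chromosomes, with 6 on 2L, 7 on 2R, 4 on 3L, 9 on 3R, 6 on X and 1 on chromosome 4. Their coordinates were identical in the tables and in the Ensembl release used here. The strand setting of the counting is not given in the sources used here, so values of members that overlap another gene are uncertain. They include RpS27A with Ip259 and RpS23 with mir-308 on the same strand, and RpS9, RpS10b, RpS15, RpS20 and RpS29 with a gene on the opposite strand.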

How the data were processed

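Ribosome-bound RNA from 17 samples of 3 tissues was analysed from whole-number counts per gene, which the authors deposited without normalization in a table for each tissue. According to the submitters' processing notes and the study's methods, reads were trimmed with Trim Galore, aligned to BDGP6 with HISAT2 2.2.1, handled with SAMtools 1.12 and counted over genes in SeqMonk. The strand setting, the treatment of introns and whether reads or pairs were counted are not given in the sources used here. Groups were taken from the sample titles, and 0 per-sample columns were unused. The tables' coordinates were matched to Ensembl gene models, and 98.7% of all genes had the same start and end.

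Within each tissue, every gene counted at least once was fitted with the quasi-likelihood test of edgeR 4.0.16 (R 4.3.3, TMM scaling). P-values were adjusted by Benjamini-Hochberg over all genes tested, with a threshold of 0.05. A prior count of 2 was used only for the log2 levels in the comparison of samples with the same title number. Each SE was obtained as the absolute log2 fold change over the square root of F. Effects were compared between tissues with a genotype by tissue term over both tissues. DESeq2 1.42.0, other scalings and filters, a joint fit of 3 tissues, a replicate block and leaving out each sample were alternatives. Summaries were made with Python 3.11.15 and pandas 2.3.3. The edgeR fit was run on simulated data with known changes. These were larger than those of the members in heads and legs, and larger than the members' median of 1.64 in larvae. The run therefore does not show how well smaller changes are found. Depth ran from 29512310 to 88324615 counts per sample.

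The members, the gene lists and the grouping by place in the subunit were chosen with earlier results of these data known. Genes were named if they belonged to a fixed set of roles (sta, RpS2, RpS3, RpS6, RpS27A and the paralog pairs), were among the 3 largest or 3 smallest log2 fold changes of members of at least 10 CPM or the 3 smallest p in a tissue, passed the adjusted threshold, or stayed under 10 CPM. The values of 3 members are not reported here singly, although sums and counts over the set include them. No promoter or protein sequence was used here.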

Additional observations from a re-analysis of the deposited data

Results flagged for a closer look

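The TRAP effect of the 9 small-subunit genes given here differed between legs and heads by the genotype by tissue term in edgeR, with a greater effect in legs for each. The difference on the log2 scale was 1.27 (SE 0.23) for RpS15Ab, 1.24 (SE 0.33) for RpS20 and 1.23 (SE 0.24) for RpS24. It was 1.15 (SE 0.27) for RpS16, 1.07 (SE 0.24) for RpS14b and 1.05 (SE 0.28) for RpS23. It was 1.03 (SE 0.29) for RpS9 and 0.99 (SE 0.25) for RpS15Aa. RpS7 followed with 0.98 (SE 0.27). The adjusted p values in edgeR ran from 0.0131 to 0.0495, and 4.29% of the 16706 genes tested had a greater effect in legs at this threshold. The calls were not steady. Over the whole set the count was 11, but 1 with library size alone and 0 in a joint fit of 3 tissues. Without leg control replicates 1 and 2 it was 1 and 0. For RpS15Ab, RpS14b and RpS24 the head samples were lower in every TRAP sample and the leg samples higher in every TRAP sample, while the other 6 overlapped in heads. Tissue, batch and the sexes pooled (males for heads, both sexes for legs) cannot be told apart in these differences.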

How the results depend on the processing

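The direction of the member medians in larvae and legs was the same under each alternative run, whereas that in heads ran from -0.15 to 0.019 on leaving out samples. With library size alone, 4 members passed in heads, the head median was 0.41 and 24 members were above every control. The larva minus head median was then 0.89, the leg minus head median 0.40 and its count 1. The head values of RpS2, RpS3, RpS6, RpS27A, RpS14b, RpS10b, RpS3A and RpS28-like turned to 0.38, 0.30, 0.40, 0.43, 0.090, 0.41, 0.11 and 0.15, and the larval value of RpS15Ab to -0.10. RpS27A in heads turned to 0.0076 with relative log expression factors and with DESeq2 and to 0.0053 with at least 1 count in every sample. DESeq2 gave counts of 24 in larvae, 31 in legs, 19 for larva minus head and 26 for leg minus head. A joint fit of 3 tissues gave counts of 0 in heads, 26 in larvae, 8 for larva minus head and 0 for leg minus head, and turned sta, RpS14a, RpS15Aa and RpS29 in heads to -0.036, -0.018, -0.11 and -0.015. At an adjusted p of 0.01 the head count was 0. The cause of these changes was not tested.

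Leaving out 1 sample at a time, the count past the threshold ran from 0 to 1 in heads, 0 to 10 in larvae, 0 to 10 in legs and 0 to 12 for leg minus head. Head members above every control ran from 0 to 1, and the larva minus head median from 1.15 to 1.97, lowest without larval TRAP replicate 2. In heads RpS27A ran from -0.19 to 0.054 (above 0 without control replicate 1 or TRAP replicate 3), sta from -0.039 to 0.17 (below 0 without control replicate 2 or TRAP replicate 3) and RpS15Aa from -0.11 to 0.070 (above 0 only without control replicate 1 or TRAP replicate 3). RpS29 ran from -0.049 (without control replicate 3) to 0.27, RpS14a from -0.028 (without TRAP replicate 1) to 0.17 and RpS10a from -0.71 (without TRAP replicate 3) to 0.55. In larvae RpS10a ran from -4.82 to 3.44 and RpS28-like from -1.53 to 5.04 (both lowest without TRAP replicate 1), and RpS15Ab from -0.52 (without TRAP replicate 2) to 1.13. In legs RpS10a ran from -4.60 to 5.82 (highest without control replicate 2). These fitted values of RpS10a and RpS28-like rest on few counts.

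Samples with the same title number did not deviate together in every pair (r of 0.28, 0.13 and 0.08 in heads, -0.51, -0.27 and -0.0041 in larvae and 0.04 and 0.06 in legs). In heads, pairs of different number ran from -0.29 to 0.21. With 2 or 3 samples per group these values cannot tell whether samples of the same number were prepared together. With a replicate block by title number the counts were 1 in heads, 1 in larvae and 0 in legs, and the medians -0.07, 1.56 and 0.92. By library number the larval count was 12 and the median 2.09. Over all genes 122 were then called higher and 88 lower, and the median was -0.54. Larval control replicate 1 and TRAP replicate 1 have no partner by library number, so the effect in that fit rests on the paired libraries alone. The block turned RpS10a to -0.21 in heads, to -2.19 in larvae by title number and to -5.45 by library number, and RpS28-like to -1.96 by library number.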

Other observations

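Mitochondrially encoded genes took 0% of the counts in every head sample, whereas they took between 0.259% and 0.908% in the larval and leg samples.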
